A study of Drosophila melanogaster with 7 samples.

Results

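Apoptosis and autophagy are the pathways by which the larval salivary gland of Drosophila is removed at metamorphosis, and 32 genes of these pathways were followed here in glands with cleaved against intact cohesin. They are 11 apoptosis genes (grim, skl, Diap2, Dronc, Dredd, Strica, Dark, Dcp-1, Damm, Buffy and Debcl) and 21 autophagy genes (Atg2, Atg3, Atg4a, Atg4b, Atg5, Atg7, Atg8a, Atg8b, Atg9, Atg10, Atg12, Atg13, Atg14, Atg17, Atg18a, Atg18b, Atg101, Vps34, Vps15, Uvrag and ref(2)P). Members were found by matching the listed names to the probe annotation and to current names and synonyms in the RefSeq gene table. All 32 were measured, by 33 probes, out of 11609 genes that had a probe with a single gene name. The matching used names and no expression values, but the listed members were chosen with earlier results of these data known.

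The series compared salivary glands of crawling third-instar larvae on 7 two-colour oligonucleotide arrays, each carrying 1 sample with cleaved and 1 with intact cohesin. In every group the larvae were w1118, carried 1 copy of hs-TEV (the TEV protease under a heat-shock promoter) and had the Rad21ex3 allele on 1 homologue. In the cleaved group the other homologue carried Rad21ex15 with Rad21(TEV), a Rad21 subunit with TEV sites, so that heat shock cuts the cohesin ring. The intact group on arrays 1.1, 1.2 and 1.3 carried genomic Rad21 over Rad21ex3 (genomic control). On arrays 2.1, 2.2, 2.3 and 2.4 it carried Rad21ex3 with tgRad21, an uncut transgenic Rad21, over Rad21ex3 (transgenic control). Larvae of every group, controls included, had a heat shock of 45 min at 37 °C and then 10 to 12 h of recovery at room temperature. The cleaved and control glands therefore differ in genotype, and the effect of the alleles and that of the cut cannot be told apart. A heat-shock promoter is not restricted to the gland, so the protease can be induced in the whole larva. The labels do not say how many animals were pooled for a sample, or whether replicates came from separate crosses, so p-values measure the spread between these samples.

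The deposited values are log ratios, read here as log2. A negative value likely means less transcript in the cleaved glands. The basis is that EcR, which encodes the ecdysone receptor and is known to be reduced in cohesin-mutant fly neurons, was negative on all 7 arrays. In what follows rose and fell refer to the sign as deposited. The labels place the cleaved sample in Cy5 on arrays 1.1, 1.2, 2.1 and 2.2 and in Cy3 on arrays 1.3, 2.3 and 2.4, and the ratios were taken as already turned to 1 direction. Across all genes, pairs of arrays with opposite dyes had Pearson correlations of 0.01 to 0.48, and none of the 21 pairs lay under −0.3. Estimates come from limma with a dye term, over all 7 arrays and all genes, and are given as log2 ratio ± standard error. A gene passed the test at a Benjamini-Hochberg adjusted p under 0.05 over all 11609 genes. The number of arrays limits the precision.

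In flies, death by apoptosis starts when Reaper, Hid, Grim and Sickle bind inhibitor-of-apoptosis proteins and free the initiator caspase Dronc, which with its adaptor Dark activates effector caspases. Autophagy starts with the Atg1 kinase complex, passes through the Vps34 lipid kinase complex, and closes the autophagosome with the ubiquitin-like Atg8 and Atg12 conjugation systems. In the salivary gland both are known to run after the prepupal pulse of the steroid hormone ecdysone, through the receptor and its early genes, later than the crawling larval stage sampled here. Of this machinery, rpr, hid, Diap1, Drice, Decay, Atg1, Atg6, Atg16, Vmp1 and Syx17 were not analysed here.

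Of the 32 genes, the autophagy genes Atg13 and Uvrag passed the test, both negative, and no member passed it as positive. Over all genes 8.14% passed, with 3.82% negative and 4.32% positive, so 2 of 32 is near the background. No apoptosis gene passed, while 3 of 11 (Dronc, Dredd and Diap2) had an unadjusted p under 0.05 in limma, as had 20.3% of all genes. Among the 21 autophagy genes 4 had one (Atg13, Uvrag, Atg17 and ref(2)P), so these shares too are near the background. The median estimate was −0.07 for the apoptosis genes, with 8 negative and 3 positive, and 0.03 for the autophagy genes, with 8 negative and 13 positive, against 0.02 for all genes. The 95% interval of the estimate lay within 1 log2 unit of 0 for 24 of the 32 members (8 of 11 apoptosis and 16 of 21 autophagy genes), a share also near the 74.9% of all genes. The number of genes passing over the whole array was 606, 485, 546 and 461 without array 1.1, 1.2, 2.1 or 2.4, against 945 with all arrays. These are not all the arrays, and the full range with each array left out in turn is given further below.

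Grim and skl encode the 2 measured antagonists of inhibitor-of-apoptosis proteins. The log2 ratio of grim was −0.11, −0.07 and −0.17 with the genomic control and −1.59, 0.34, 0.06 and −0.30 with the transgenic control. Array 2.1 lay far below the other 6, and the estimate was −0.25 ± 0.23 (adjusted p = 0.678, limma). The ratio of skl was −0.52, 0.02 and −0.04 with the genomic and 0.13, 0.21, 0.57 and −0.73 with the transgenic control, with an estimate of −0.05 ± 0.19. The control types overlapped for both genes. In the RefSeq gene table grim and skl lie on arm 3L with rpr as the only protein-coding gene between them. Diap2, an inhibitor-of-apoptosis protein that also acts in the Imd immune pathway, had ratios of 0.29, 0.35 and −0.90 with the genomic control and 0.38, −0.04, −1.05 and −0.99 with the transgenic control. Its 3 low values are those of the 3 arrays with the cleaved sample in Cy3, and the estimate was −0.37 ± 0.13 (95% interval −0.66 to −0.08, adjusted p = 0.13, limma). Without the dye term the estimate of Diap2 was −0.28 ± 0.24 (adjusted p = 0.642, limma).

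The initiator caspases and their adaptor followed. Dronc, the fly caspase-9 relative that gland death needs, had ratios of −0.90, 0.05 and −1.04 with the genomic control and −0.78, 0.47, −0.43 and −1.05 with the transgenic control. It was negative on 5 of 7 arrays, the exceptions being arrays 1.2 and 2.2, and its estimate of −0.57 ± 0.20 is the lowest of the apoptosis genes (95% interval −1.04 to −0.10, adjusted p = 0.152, limma). Dredd, a caspase of the Imd pathway, had ratios of −0.13, −0.25 and −0.23 with the genomic control and −0.41, −0.68, −0.68 and −0.29 with the transgenic control. It is the only member with 1 sign on all 7 arrays, which 11.9% of all genes had. Its estimate was −0.38 ± 0.14 (95% interval −0.70 to −0.07, adjusted p = 0.15, limma). Strica, a caspase with a serine- and threonine-rich prodomain, ranged from −1.07 on array 2.4 to 1.34 on array 2.2, with an estimate of −0.05 ± 0.19. Dark, the fly Apaf-1 relative that assembles the apoptosome, ranged from −0.58 on array 2.4 to 0.96 on array 2.2, with an estimate of 0.02 ± 0.19. Dark is the 1 member with 2 probes, whose estimates were 0.01 and 0.02. Array by array they disagreed, at 0.55 and −1.14 on array 1.3 and at −0.39 and 0.61 on array 2.3, and correlated at 0.21 over the 7 arrays.

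Among the effector caspases and the Bcl-2 family, Damm and Buffy spread widely over the arrays while Dcp-1 and Debcl did not. Dcp-1, an effector caspase, stayed between −0.40 on array 1.1 and 0.50 on array 2.2 (estimate 0.10 ± 0.15). Damm, a caspase with a short prodomain, had ratios of 0.40, 0.29 and 3.79 with the genomic control and −1.63, 0.93, −0.69 and −0.92 with the transgenic control. The value of 3.79 on array 1.3 is the highest of any member on any array, and the estimate was 0.36 ± 0.58. Buffy, one of the 2 fly Bcl-2 proteins, ranged from −2.11 on array 1.3 to 1.49 on array 2.2 (estimate −0.18 ± 0.38). Debcl, the other, ranged from −0.42 to 0.26 (estimate −0.07 ± 0.15). The 95% intervals ran from −0.25 to 0.45 for Dcp-1 and from −0.41 to 0.28 for Debcl, but from −0.97 to 1.70 for Damm and from −1.05 to 0.69 for Buffy.

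**Figure D1:**
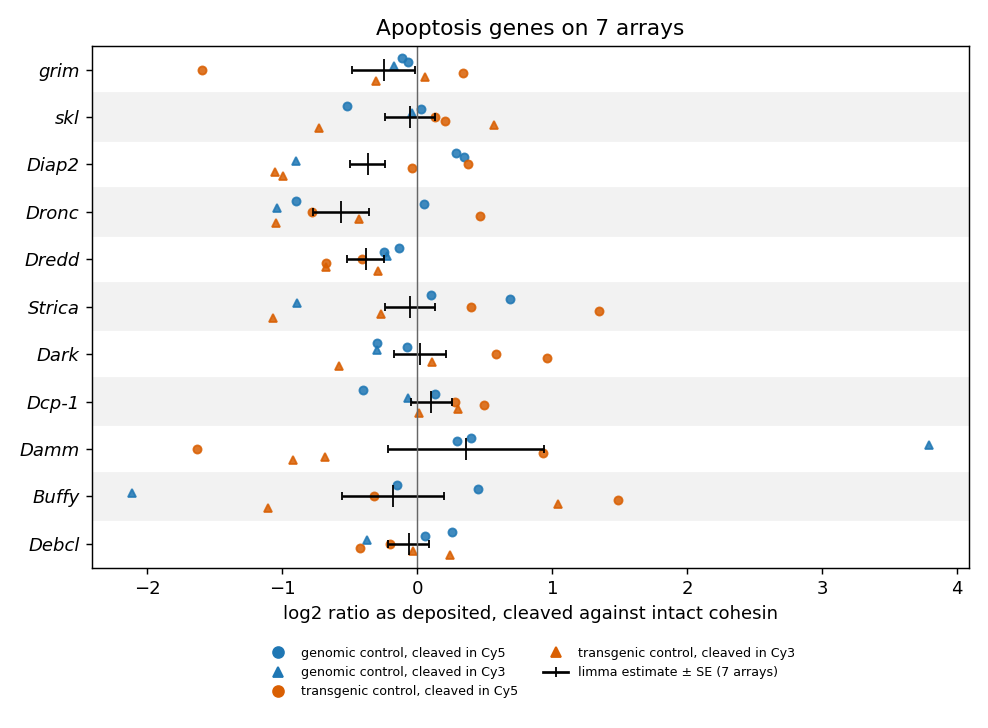
The deposited log2 ratio of each apoptosis gene on each of 7 arrays (x axis), with circles for arrays with the cleaved sample in Cy5, triangles for Cy3, and colours for the genomic and transgenic controls. The vertical tick and bar give the limma estimate ± standard error. Dredd lies left of 0 on all 7 arrays, and Damm reaches 3.79 on array 1.3.

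In the autophagy initiation complex Atg13 was negative, Atg17 had a positive estimate that did not pass, and Atg101 was near 0. Atg13, the regulatory subunit of the Atg1 kinase complex, fell, with an estimate of −0.96 ± 0.22 (95% interval −1.46 to −0.45, adjusted p = 0.036, limma). Its ratios were −0.63, 0.27 and −1.65 with the genomic control and −1.12, 0.15, −0.97 and −2.12 with the transgenic control, negative on 5 of 7 arrays. The positive values are those of arrays 1.2 and 2.2, the same arrays as for Dronc. The call was lost when any single array other than 2.3 was left out, with adjusted p from 0.0342 to 0.133 over the 7 repeats and estimates from −1.11 to −0.82. The call was also lost without the dye term (adjusted p = 0.114) and with a term for control type (0.0655).

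Atg17, the scaffold of the same complex and a relative of mammalian FIP200, had ratios of 1.11, 1.05 and 1.01 with the genomic control and 0.72, 0.57, −0.09 and −0.10 with the transgenic control. The genomic arrays lay close together and above all transgenic arrays. Over the 7 arrays the estimate was 0.57 ± 0.18, the highest of the 32 members, with an adjusted p of 0.101 in limma. It passed with array weights (0.0409) and with a term for control type (0.0484). Atg101, another subunit, was positive on 5 arrays and reached −0.55 and −0.71 on arrays 2.3 and 2.4 (estimate −0.02 ± 0.14).

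In the lipid kinase complex that makes phosphatidylinositol 3-phosphate at the forming membrane, Uvrag fell by 0.74 ± 0.18 on the log2 scale (95% interval −1.15 to −0.34, adjusted p = 0.0391, limma). Uvrag is a subunit of the form of the complex that also serves endosome traffic. Its ratios were −0.51, −0.41 and −0.87 with the genomic control and −0.91, 0.30, −1.44 and −1.0 with the transgenic control. Array 2.2 alone was positive, and without it the adjusted p was 0.028. Without any other single array the call was lost, with adjusted p from 0.0695 to 0.114, as it was without the dye term (0.0783) and with a term for control type (0.0698).

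The other subunits of that complex had small ratios. The catalytic subunit Vps34, listed as Pi3K59F in the gene table, had ratios of 0.24, 0.12 and 0.14 with the genomic control and −0.44, −0.48, −0.12 and −0.19 with the transgenic control, so the control types had opposite signs (estimate −0.10 ± 0.15). Its regulatory kinase-like subunit Vps15 ranged from −0.43 to 0.30 (estimate −0.11 ± 0.13). Atg14, which marks the autophagy-specific form of the complex, ranged from −0.62 to 0.71 (estimate 0.01 ± 0.13). Uvrag and Atg14 therefore differed in their estimates, although this difference was not tested.

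The genes of membrane supply did not pass the test and had small estimates. Atg9, the membrane protein of the vesicles that seed autophagosomes, was positive on 5 arrays and −0.62 and −0.65 on arrays 2.3 and 2.4 (estimate 0.18 ± 0.15). Its lipid-transfer partner Atg2 ranged from −0.56 to 0.51 (estimate 0.03 ± 0.16). The phosphoinositide-binding proteins Atg18a and Atg18b had estimates of 0.17 ± 0.17 and 0.02 ± 0.18. Array 2.3 stood apart for Atg18a at 1.05, where the other 6 arrays lay between −0.27 and 0.21.

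None of the 9 genes of the conjugation systems passed, with 6 positive and 3 negative estimates. Atg4a and Atg4b encode the proteases that trim Atg8, and they differed in spread. Atg4a had the smallest spread of all members, from −0.08 to 0.27 over the 7 arrays (SD 0.15). Atg4b had ratios of 1.2, 1.04 and 1.79 with the genomic control and 0.80, −0.27, −1.18 and 0.11 with the transgenic control, with no overlap (estimate 0.47 ± 0.34).

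The E1-like enzyme Atg7 was −1.34 on array 1.3 and −1.38 on array 2.4 and between −0.68 and 0.49 on the others (estimate −0.45 ± 0.23). The E2-like enzymes were near 0 on average, Atg3 at 0.04 ± 0.23 and Atg10 at 0.06 ± 0.41, but wide across arrays. Atg10 ran from −2.30 on array 2.1 to 2.45 on array 2.3, both with the transgenic control. Atg5 and Atg12, which are joined to each other by this system, had estimates of opposite sign, 0.41 ± 0.21 and −0.33 ± 0.21.

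The ubiquitin-like proteins Atg8a and Atg8b, which coat the autophagosome membrane, had estimates of 0.10 ± 0.18 and −0.17 ± 0.25. Probe sequences were not used here, so cross-hybridisation between such related genes was not tested. The receptor ref(2)P, the fly p62 that carries ubiquitinated cargo into autophagosomes and is itself degraded there, had ratios of 0.34, 0.56 and 0.91 with the genomic control and 1.19, −0.06, −0.31 and 0.92 with the transgenic control. It was positive on 5 of 7 arrays (estimate 0.51 ± 0.22, adjusted p = 0.236, limma), and passed with array weights (0.0484). In whole glands a transcript ratio cannot tell fewer cells of a type from less RNA per cell.

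**Figure D2:**
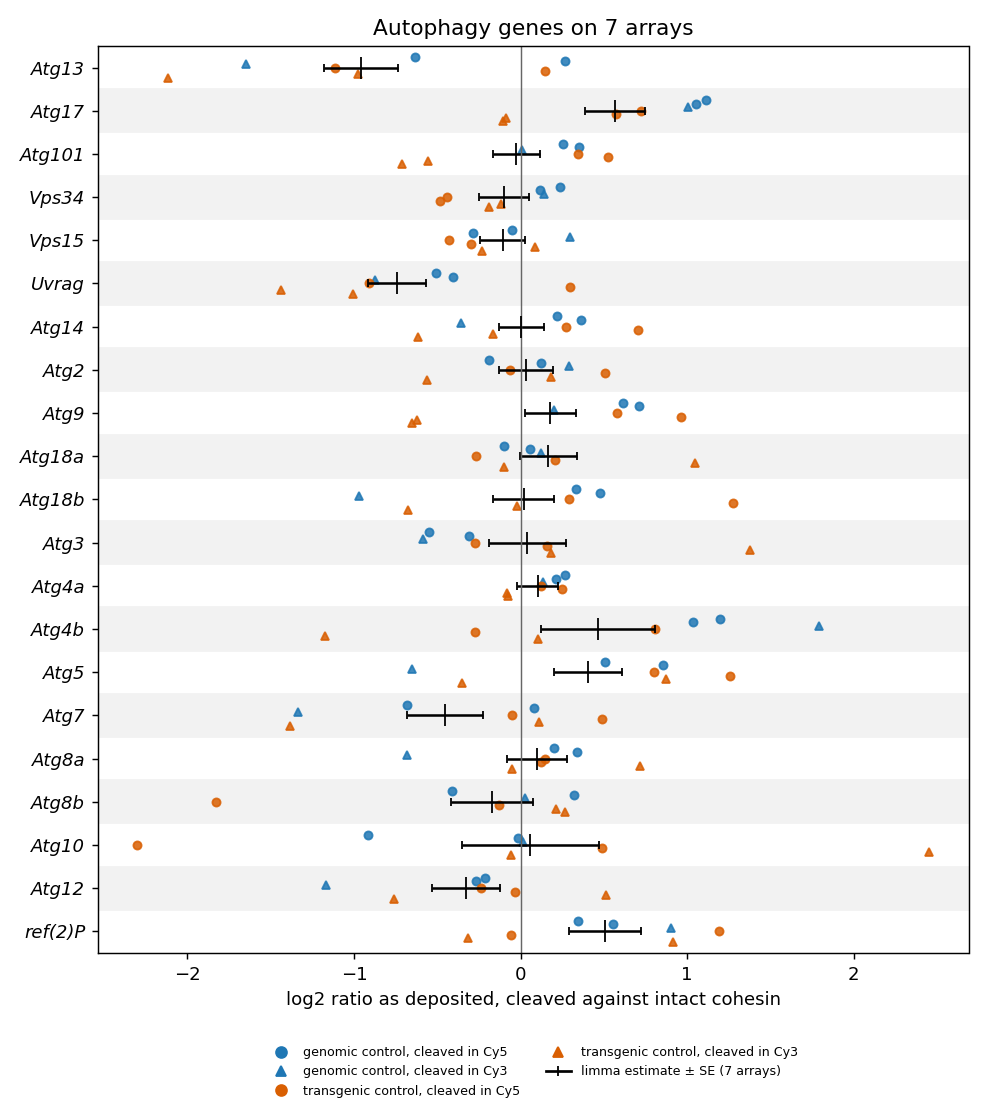
The deposited log2 ratio of each autophagy gene on each of 7 arrays (x axis), with the same symbols, colours and limma estimates ± standard error as for the apoptosis genes. Atg13 and Uvrag lie mostly left of 0, the genomic arrays of Atg17 and Atg4b lie right of their transgenic arrays, and Atg10 spans from −2.30 to 2.45.

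Set side by side, the apoptosis genes had a lower median than the autophagy genes on 6 of 7 arrays. The medians on arrays 1.1, 1.2 and 1.3 were −0.13, 0.06 and −0.30 for apoptosis and 0.20, 0.27 and 0.01 for autophagy. On arrays 2.1, 2.2, 2.3 and 2.4 they were −0.20, 0.47, −0.03 and −0.73 for apoptosis and −0.05, 0.25, −0.02 and −0.23 for autophagy. Only array 2.2 had the higher median for apoptosis. The difference, apoptosis minus autophagy, averaged −0.28 (SD 0.07, n = 3) with the genomic control and −0.11 (SD 0.30, n = 4) with the transgenic control, and −0.19 (SD 0.23) over all 7 arrays. All genes together had medians between −0.22 (array 2.1) and 0.25 (array 2.3). The apoptosis medians of arrays 1.3, 2.2 and 2.4 lay outside that range, as did the autophagy medians of arrays 1.2 and 2.4. Medians of lists this small spread more than medians of all genes, so lying outside is not read as a result. After subtraction of the median of all genes, arrays 1.1, 1.2 and 1.3 had apoptosis medians of −0.07, 0.03 and −0.36. Arrays 2.1, 2.2, 2.3 and 2.4 had 0.02, 0.38, −0.29 and −0.59. The autophagy medians, with arrays in the same order, were 0.27, 0.23, −0.06, 0.17, 0.16, −0.27 and −0.09. The lists hold 11 and 21 genes that share each array, so these medians are a description with no test.

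The arrays also differed in how the members sat on them. On array 2.4, 26 of the 32 members were negative (9 of 11 apoptosis and 17 of 21 autophagy genes), while on array 1.2 only 8 were (3 and 5). Of all genes 59.3% were negative on array 2.4 and 45% on array 1.2. The median SD of a gene over the 7 arrays was 0.55 for members and 0.56 for all genes. By median absolute deviation over all genes the transgenic arrays were wider than the genomic ones, at 0.60 to 0.838 against 0.298 to 0.485. By the share of genes over 1 log2 unit from 0 the control types overlapped, at 15.8% to 26.6% against 6.06% to 19.7%. The 19.7% was that of array 1.3.

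**Figure D3:**
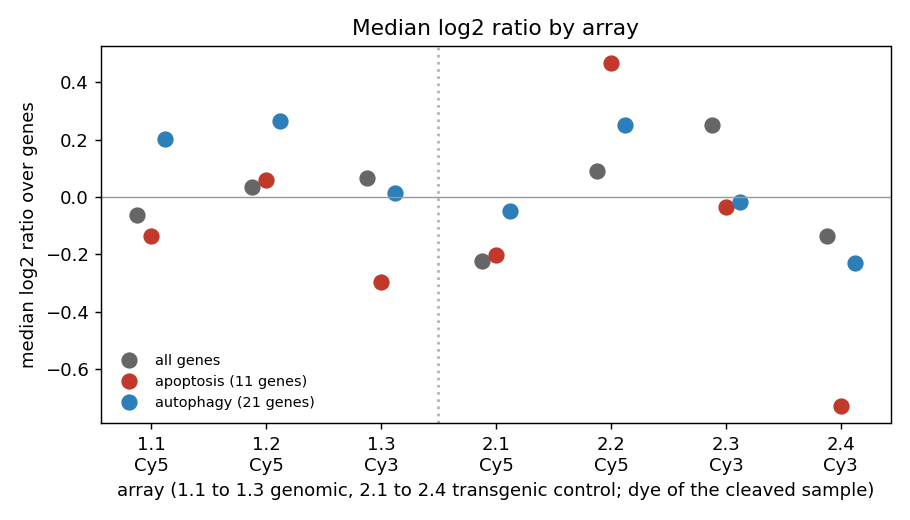
Median log2 ratio (y axis) of the apoptosis genes, the autophagy genes and all genes on each array (x axis, with the dye of the cleaved sample). The apoptosis point lies below the autophagy point on every array except 2.2, and its lowest value is −0.73 on array 2.4.

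The control types were compared directly, transgenic minus genomic, with the same dye term. No gene of 11609 passed at an adjusted p under 0.05 in limma, where 4.32% (502 genes) had an unadjusted p under 0.05. Of the 32 members 3 had one. The difference was −2.25 ± 0.92 for Damm (unadjusted p = 0.0441 in limma), −1.44 ± 0.51 for Atg4b (0.0245) and −0.70 ± 0.29 for Atg17 (0.0446), and the adjusted p was 1 for each. The group means were 1.34 ± 0.40 (SD, n = 3) and −0.13 ± 0.83 (SD, n = 4) for Atg4b, and 1.06 ± 0.05 and 0.28 ± 0.43 for Atg17. For Damm the genomic mean rests on array 1.3, and the values of the control types overlap.

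Without overlap of the array values were 5 members, against 4.07% of all genes. Dredd, Atg17, Vps34 and Atg4b were higher with the genomic control, and Atg3 was higher with the transgenic control. Vps34 alone was positive on every genomic and negative on every transgenic array (0.62% of all genes split in either way). Its means were 0.16 ± 0.06 (SD, n = 3) and −0.31 ± 0.18 (SD, n = 4), and the difference of −0.50 ± 0.27 had a 95% interval from −1.13 to 0.13. A fit on the 3 genomic arrays alone has array 1.3 as its single Cy3 array, so that array is fitted exactly and adds nothing to the error, and no call is read from that fit. Array 1.3 holds the extreme values of both Damm (3.79) and Buffy (−2.11), and without it the estimate of Damm over the other 6 arrays was −0.40.

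Dye orientation also moved with the members' values. For 6 of 32 members the arrays with the cleaved sample in Cy5 did not overlap those with it in Cy3, against 11.6% of all genes. These were Diap2, Strica, Atg101, Atg14, Atg9 and Atg18b, and all were higher with the cleaved sample in Cy5. Over all genes, 531 were higher in Cy5 and 810 in Cy3. Diap2 averaged 0.24 over the 4 Cy5 arrays and −0.98 over the 3 Cy3 arrays, a dye term of 1.22 ± 0.25. That of Strica was 1.37 ± 0.38 and that of Atg9 was 1.07 ± 0.31. Atg13, which passed the main test, overlapped between the orientations and had a dye term of 1.25 ± 0.44. No gene's dye term passed after adjustment in limma (lowest adjusted p 0.536), and 1072 genes (9.23%) had an unadjusted p under 0.05, 7 of them members. The part of dye in the members' ratios was not tested beyond this term.

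**Figure D4:**
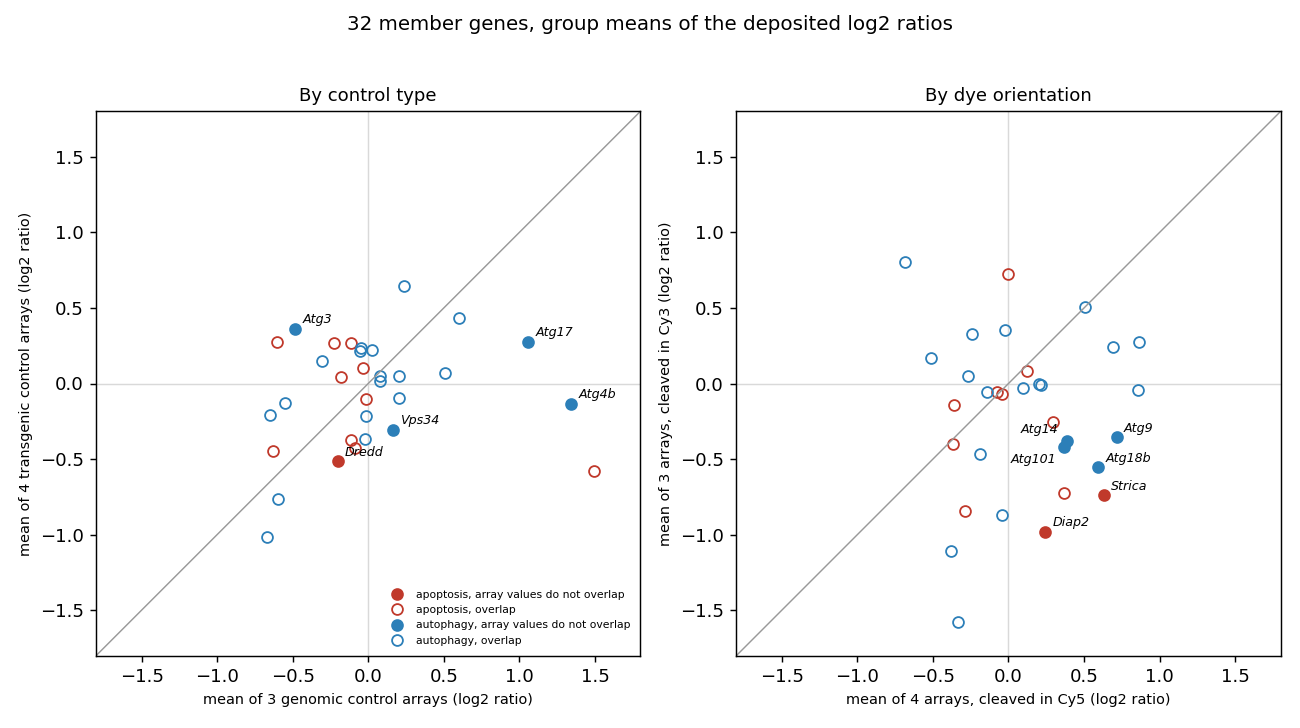
Group means of the log2 ratio for the 32 members, by control type (left, 3 genomic arrays on x against 4 transgenic arrays on y) and by dye orientation (right, 4 Cy5 arrays on x against 3 Cy3 arrays on y). Filled points are the 5 and 6 members whose array values do not overlap between the groups, and all 6 filled points on the right lie below the diagonal of equal means.

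Other genes of the pathways came from 2 lists. Of 28 further apoptosis genes 19 were measured. In this list 3 passed as positive and none as negative, with a median of 0.05, where 4.32% of all genes passed as positive and 3.82% as negative. All 3 belong to the tumour necrosis factor and Jun kinase branch, which is known to drive apoptosis and wound responses in flies. This grouping was made after the values were seen. The ligand egr rose by 1.4 ± 0.20 (adjusted p = 0.00606, limma), with ratios of 1.38, 1.17 and 1.55 with the genomic control and 2.22, 0.51, 1.31 and 1.59 with the transgenic control. The receptor grnd rose by 1.48 ± 0.14 (adjusted p = 0.000995, limma), with ratios of 1.68, 1.26 and 1.01 with the genomic and 1.68, 1.74, 1.48 and 1.60 with the transgenic control. Both were positive on all 7 arrays, their control types overlapped, and their calls held without any single array.

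The Jun kinase bsk rose by 0.64 ± 0.14 (adjusted p = 0.03, limma), a call lost without any single array other than 1.3 (adjusted p from 0.0431 to 0.0979). Its 3 arrays with the cleaved sample in Cy3 were the highest, from 0.64 to 1.21, against −0.01 to 0.55. Other genes of the branch did not pass. They were the second receptor wgn at −0.35 ± 0.33, the kinase hep at 0.41 ± 0.22 and the phosphatase puc, a transcriptional target of the branch, at 0.46 ± 0.14 (adjusted p = 0.086, limma, positive on all 7 arrays). Of 30 further autophagy genes 21 were measured, with a median of −0.03. Of these 1 passed, SNF4Agamma, where 8.14% of all genes did. SNF4Agamma encodes the gamma subunit of the energy-sensing kinase AMPK and fell by 1.03 ± 0.20 (adjusted p = 0.02, limma). It was negative on all 7 arrays, from −1.72 to −0.46, and its call was lost without array 1.2 or 2.4 (adjusted p up to 0.0769). The catalytic subunit AMPKalpha had an estimate of −0.43 ± 0.23 and the beta subunit alc one of 0.17 ± 0.22, and neither passed.

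The hormone regulators known to time gland death were read beside the members, with 9 of 11 measured. Of these 2 passed as negative and 1 as positive, where 3.82% and 4.32% of all genes did. EcR fell by 1.77 ± 0.17 (adjusted p = 0.000995, limma), from −2.14 to −0.98 over the arrays. The reading of negative as less transcript rests on EcR itself, so the sign of EcR is no separate evidence for that reading. The early gene br fell by 0.86 ± 0.13 (adjusted p = 0.00803, limma), from −1.27 to −0.51, with its 6 probes between −1.81 and −0.45. Fitted by probe, their adjusted p ran from 0.000964 to 0.22 (limma), so not every probe passed. The lowest correlation between br probes over the arrays was −0.26. The competence factor ftz-f1 rose by 0.78 ± 0.19 (adjusted p = 0.0433, limma), from 0.09 to 1.5, a call lost without any single array other than 2.2 (adjusted p up to 0.127). The other 6 did not pass. Eip93F, a death-specifying early gene, had an estimate of −0.36 ± 0.31, usp, the partner of the receptor, one of 0.05 ± 0.16, and the gland identity factor fkh one of −0.01 ± 0.25. The cofactor genes MED24, kto and nej had estimates of 0.01, 0.14 and 0.05.

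**Figure D5:**
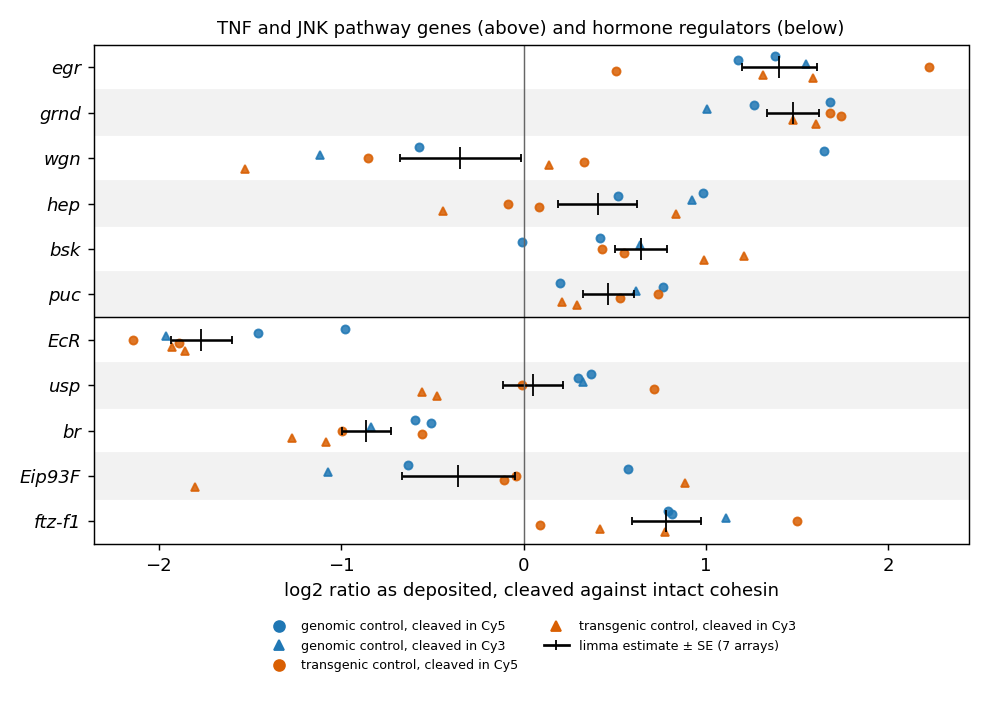
The deposited log2 ratio (x axis) of 6 genes of the tumour necrosis factor and Jun kinase branch (above the line) and 5 hormone regulators (below it) on each of 7 arrays, with the limma estimate ± standard error. All arrays of egr and grnd lie right of 0 and all arrays of EcR and br lie left of it, while wgn and Eip93F spread over both sides.

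The values are ratios and hold no levels, so whether the tissue's defining markers are present could not be read from them. Of 10 measured gland markers 2 passed, both negative, where 3.82% of all genes passed as negative. They were the glue gene Sgs1 at −6.21 ± 0.31 and the gland transcription factor gene sage at −1.13 ± 0.17. The gland markers went both ways, with 6 negative and 4 positive estimates, the highest 1.25. Their spread over the arrays was unequal. The gland marker ng1, chosen after its values were seen, ran from −5.42 on array 2.3 to 5.85 on array 2.4. In sage the values stayed between −1.83 and −0.49. Of 6 fat body markers Apoltp passed as positive (0.91 ± 0.19), with 3 negative and 3 positive estimates, the lowest −1.10. Of 9 hemocyte markers none passed. The summed level of these lists cannot be had from ratios, and the medians of the estimates were −0.19, 0.02 and 0.01. Their part in the members' ratios was not tested.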

How the data were processed

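RNA of salivary glands was compared on 7 two-colour spotted long-oligonucleotide arrays, per the labels. The deposited values are log ratios, 1 per probe and array, read here as log2 because 2 of them exceed 11.1, the natural log of the highest 16-bit intensity. Their base, numerator, background correction and normalization were not given in the sources used here. Of 14569 probes, 12657 had 1 gene symbol, 96 several and 1816 none, and names were updated through the RefSeq gene table of Release 6. Probes of a gene were averaged on each array, giving 11609 genes. limma 3.58.1 in R 4.3.3 (lmFit and eBayes) tested the intercept with a gene-wise dye term, with Benjamini-Hochberg adjustment over all genes, 5 residual and 3.10 prior degrees of freedom. The control types were compared in the same way. The code was tested on simulated data. Alternatives changed the dye term, a control-type term, centring, scaling, array weights, robust eBayes, the probe averaging, the threshold and the arrays. The members, the other gene lists and the tests were chosen with earlier results of these data known. Every member is named, and other genes where they passed, together with all measured hormone regulators and genes said to be chosen after their values were seen. For the dye orientations, whose numbers the design text swaps, the labels of the channels were followed.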

Additional observations from a re-analysis of the deposited data

Results flagged for a closer look

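In 4 of the 32 genes 1 array stood far from the other 6, by the ratio of its gap to the whole range (above Dixon's 95% critical value for 7 arrays). Array 2.1 was low for grim, at −1.59 (gap over range 0.666), and for Atg8b, at −1.83 (0.658). Array 2.3 was high for Atg3, at 1.38 (0.609), and for Atg18a, at 1.05 (0.637). All 4 values are from transgenic control arrays, 2 with the cleaved sample in Cy5 and 2 in Cy3. In all, 94 sets of values were checked, over all 7 and over the 4 transgenic arrays, and chance marks about 1 in 20. They were those of the members, the other pathway genes that passed, the measured hormone regulators, and the apoptosis and autophagy medians. None of the 4 genes passed the limma test with or without a single array left out.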

How the results depend on the processing

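Over 17 alternatives for each of the 32 members, 451 of 544 values kept their direction and their side of the threshold. Of the rest, 20 no longer passed, 10 came to pass and 63 changed sign without passing before or after. These totals include the fit on the genomic arrays alone. Array 1.3, the single Cy3 array, is fitted exactly there, so no call of a single gene from that fit is given below. The count over all genes on the genomic arrays alone, given below, comes from that fit too. For the same reason that count is not read as a result and cannot be compared with the count on the transgenic arrays alone. Outside the fit on the genomic arrays alone, only Atg17 and ref(2)P came to pass. No call turned its direction. The count of autophagy members passing, 2 of 21, became 0 without the dye term and 4 with array weights. With a control-type term it was 1 (Atg17, both original calls being lost). It was 0 on the transgenic arrays alone and 0 at an adjusted p under 0.01. When arrays were left out in turn it ranged from 0 to 1. The count of apoptosis members, 0 of 11, stayed at 0 under every alternative from which calls are read. The count over all genes, 945, became 2285 on the genomic and 47 on the transgenic arrays alone and 331 at an adjusted p under 0.01, and ranged from 461 to 925 when arrays were left out in turn (606, 485 and 546 without 1.1, 1.2 or 2.1). The causes were not tested. The median of the autophagy estimates ranged from −0.08 to 0.08 and that of the apoptosis estimates from −0.21 to −0.04. The count of genes differing between control types was 0 in limma under every alternative run, including the number after the point as a replicate block. Deviations of same-numbered arrays correlated at 0.009, 0.33 and −0.24, so the numbers were not taken as pairs. Of the 7 other death-pathway genes that passed, bsk no longer did without the dye term (adjusted p = 0.0645, limma). The call of ftz-f1 was lost with arrays centred (0.0744), centred and scaled (0.0625) or with a control-type term (0.0662). On the transgenic arrays alone none of the 7 passed (adjusted p from 0.0618 for EcR to 0.467 for ftz-f1). At an adjusted p under 0.01, bsk, SNF4Agamma and ftz-f1 did not.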

Other observations

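The genes in these sentences were chosen after their values were seen. Among engulfment genes, crq, a CD36-family receptor for dying cells, was positive on all 7 arrays, from 0.13 to 1.63 (estimate 0.79 ± 0.24, adjusted p = 0.0896, limma). Ced-6, the adaptor of the receptor Draper, was positive on 6 arrays (0.55 ± 0.15, adjusted p = 0.0733, limma), while drpr itself had an estimate of −0.07 ± 0.16. Among late autophagy genes, Epg5, a tether of autophagosomes and lysosomes, had an estimate of 0.58 ± 0.18 (adjusted p = 0.0931, limma). The autophagy adaptor gene bchs had one of −1.05 ± 0.33 (adjusted p = 0.0987, limma), with values from −2.75 on array 2.4 to 0.20 on array 2.2. The phosphatase gene EDTP was negative on all 7 arrays, from −0.64 to −0.10 (−0.42 ± 0.13, adjusted p = 0.096, limma). None of these passed the test.

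The control types did not overlap for 4 genes of the other death-pathway lists, each higher with the genomic control. They were 1 of 19 apoptosis genes, 1 of 21 autophagy genes and 2 of 9 hormone regulators, against 4.07% of all genes. Over all genes, 268 were higher with the genomic and 205 with the transgenic control. The values of dnr1, which encodes an inhibitor of the caspase Dredd, were 1.1, 0.76 and 0.70 with the genomic control and 0.08, −0.28, −0.68 and −0.41 with the transgenic control, a difference of −1.11 ± 0.29 in limma (unadjusted p = 0.00574, adjusted p = 1). Those of AMPKalpha were 0.19, 0.00 and 0.47 against −0.83, −0.55, −1.1 and −1.06, a difference of −1.09 ± 0.30 in limma (unadjusted p = 0.0083, adjusted p = 1). For nej, the fly CBP cofactor gene, every genomic array was positive and every transgenic array negative, with means of 0.48 ± 0.53 (SD, n = 3) and −0.30 ± 0.22 (SD, n = 4). For kto, the fly Med12 gene, the values were 1.14, 0.13 and 0.61 against −0.08, −0.38, −0.48 and 0.08, a difference of −0.84 ± 0.36 in limma (unadjusted p = 0.0489, adjusted p = 1). No difference passed after adjustment.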
